A study of Homo sapiens with 24 samples.

Results

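The genes described here encode proteins of the mitochondrial ribosome. A gene was included when the single annotated symbol of its probe set was MRPL or MRPS followed by a number, and where a gene had several probe sets, the one brightest on average over the 24 arrays was read. This rule used annotation and overall signal, and no difference between groups, but it was set with earlier results of these data known. It gave 51 of 11963 measured genes, 31 of the large subunit (MRPL) and 20 of the small subunit (MRPS). A filter on low signal kept 48 of them, 29 large and 19 small, among 6782 genes tested in all. MRPL41, MRPL52 and MRPS18C lay below it, within 2.34 to 2.54 on the log2 scale on all 24 arrays, and received no test. Their values cannot show whether the groups differed.

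The samples were LNCaP cells, a human prostate cancer cell line whose label gives an early tumor stage. The cells were nucleofected, a form of electroporation, with 2.5 µg of plasmid carrying a scramble microRNA, miR-130a, miR-203 or miR-205, so all groups went through transfection. RNA came either from the whole cell or from an immunoprecipitate of AGO2 made with the antibody 11A. The 4 transfections and 2 kinds of RNA gave 8 groups of 3 arrays labelled as biological replicates, without a statement that they came from separate cultures, so the p-values speak for the scatter among these arrays. The study asked which messenger RNAs each microRNA binds directly. No time after transfection was given in the sources used here, and an untransfected group was not analysed here.

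The mitochondrial ribosome translates the few messages of mitochondrial DNA, all of which code for subunits of the respiratory chain and ATP synthase. All of its proteins are encoded in the nucleus, made in the cytosol and imported, so that their mRNAs are open to microRNAs in the cytosol. Some of these proteins have a counterpart of the same number in bacteria and others occur only in mitochondria. AGO2 is the Argonaute protein that carries a microRNA to messages pairing with its seed, the bases 2 to 8 of its 5′ end, and transcripts held by AGO2 come down with it. The proteins of MRPS18A and MRPS30 are found in the large subunit in structures, but were counted here by their symbols.

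The mature microRNAs below are RefSeq entries on the build GRCh38.p14, with the seed in capitals. They are shown because the seed sets which messages a transfected microRNA can pair with. The labels did not say which arm of the hairpin the plasmids were meant to supply, and the 3′ arm of miR-203a and the 5′ arm of miR-205 are printed as the usual guide strands. The first lies at chr14:104117469-104117490 and the second at chr1:209432166-209432187, both on the plus strand. The third microRNA was miR-130a. The 2 printed seeds differ from each other.
hsa-miR-203a-3p: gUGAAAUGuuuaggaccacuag
hsa-miR-205-5p: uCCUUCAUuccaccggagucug

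All values were deposited on a log2 scale, so a difference of 1 is a doubling, and each array received 2 µg of RNA, so values show shares of an RNA sample and not amounts per cell. In bulk samples fewer cells carrying a transcript and less of it per cell cannot be told apart. Between 39.9% and 41.5% of probe sets per array lay within 0.05 of the lowest value. That lowest value took 3 levels, one for the 6 arrays of miR-130a, one for the 6 of miR-203 and one for the 12 of miR-205 and scramble. Exactly at it lay 0.0539% to 0.0718% of probe sets on the arrays of miR-203, against 27.32% to 30.25% on all others. Comparisons of miR-130a or miR-203 with scramble therefore cross what appear to be separate normalization runs, and the run and the microRNA cannot be told apart there. The contrast of AGO2-bound with total RNA stays within 1 run. The 3′ minus 5′ signal of ACTB, which grows as RNA shortens, averaged 2.55 ± 0.30 (SD, n = 3) in AGO2-bound RNA of miR-130a, 2.68 ± 0.34 of miR-203, 3.45 ± 0.43 of miR-205 and 3.40 ± 0.45 of scramble, against 2.07 to 2.24 in total RNA. The same signal of GAPDH averaged 1.26, 0.77, 1.55 and 1.40 in AGO2-bound RNA in that order and 0.70 to 0.80 in total RNA, so AGO2-bound RNA of miR-203 stood at the level of total RNA by GAPDH and the other 3 AGO2-bound groups above it. Both values moved with the contrast of AGO2-bound and total RNA, and their part in the results was not tested. Of 11 luminal prostate markers, 9 were measured, and KLK3, which encodes prostate-specific antigen, stood at 10.4 to 12.3 in total RNA. Not all of them were high: FOLH1 stood at 3.23 to 4.75 in total RNA and lay within 0.05 of the lowest value on 2 arrays. Among markers of other cells, KRT5, PTPRC, CD3E and PECAM1 (basal, blood and endothelial cells) lay within 0.05 of the lowest value on all 24 arrays and KRT14 (basal) on 22. VIM, of mesenchymal cells, stood at 2.64 to 3.39 in total RNA and COL1A1, of fibroblasts, at 3.06 to 4.12.

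AGO2-bound RNA held less of most mitochondrial ribosomal protein transcripts than total RNA of the same cells did. After scramble, 9 of 48 members were higher and 31 lower in AGO2-bound RNA by limma with an adjusted p under 0.05, while 35.1% of all genes tested were higher and 37.8% lower. After miR-130a, 13 were higher and 26 lower, against 33.3% and 38.3% of all genes. After miR-203, 14 were higher and 28 lower, against 34.7% and 37.2%. After miR-205, 12 were higher and 29 lower, against 36.6% and 36.1%. The share of members called lower was thus 64.6%, 54.2%, 58.3% and 60.4%, above the share of all genes in each transfection, and no test of that difference was made. The median difference of the 48 members was -0.94 after scramble, -0.47 after miR-130a, -0.62 with miR-203 and -0.73 with miR-205, and that of all genes lay between -0.08 and -0.01. Centring each array on its median moved the medians of all genes to between -0.19 and -0.13 and those of the members to -1.08, -0.56, -0.72 and -0.90. With the 3 dim members included and no filter, the median after miR-130a was -0.28.

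By subunit, the lower calls were spread over both. Of 29 large subunit genes, 21 were lower after scramble, 18 after miR-130a, 19 with miR-203, and 17 with miR-205, with medians of -1.03, -0.95, -0.80 and -0.71. Of 19 small subunit genes, 10, 8, 9 and 12 were lower, with medians of -0.80, -0.13, -0.26 and -0.74. The small subunit median was thus nearer 0 than that of the large subunit after scramble, miR-130a and miR-203, and not after miR-205. No test between the subunits was made. The 9 large subunit genes without a bacterial counterpart had medians between -1.50 and -1.13, and 7, 7, 7 and 8 of them were lower. The 20 with one ranged in their medians from -1.0 after scramble to 0.03 after miR-205.

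**Figure D1:**
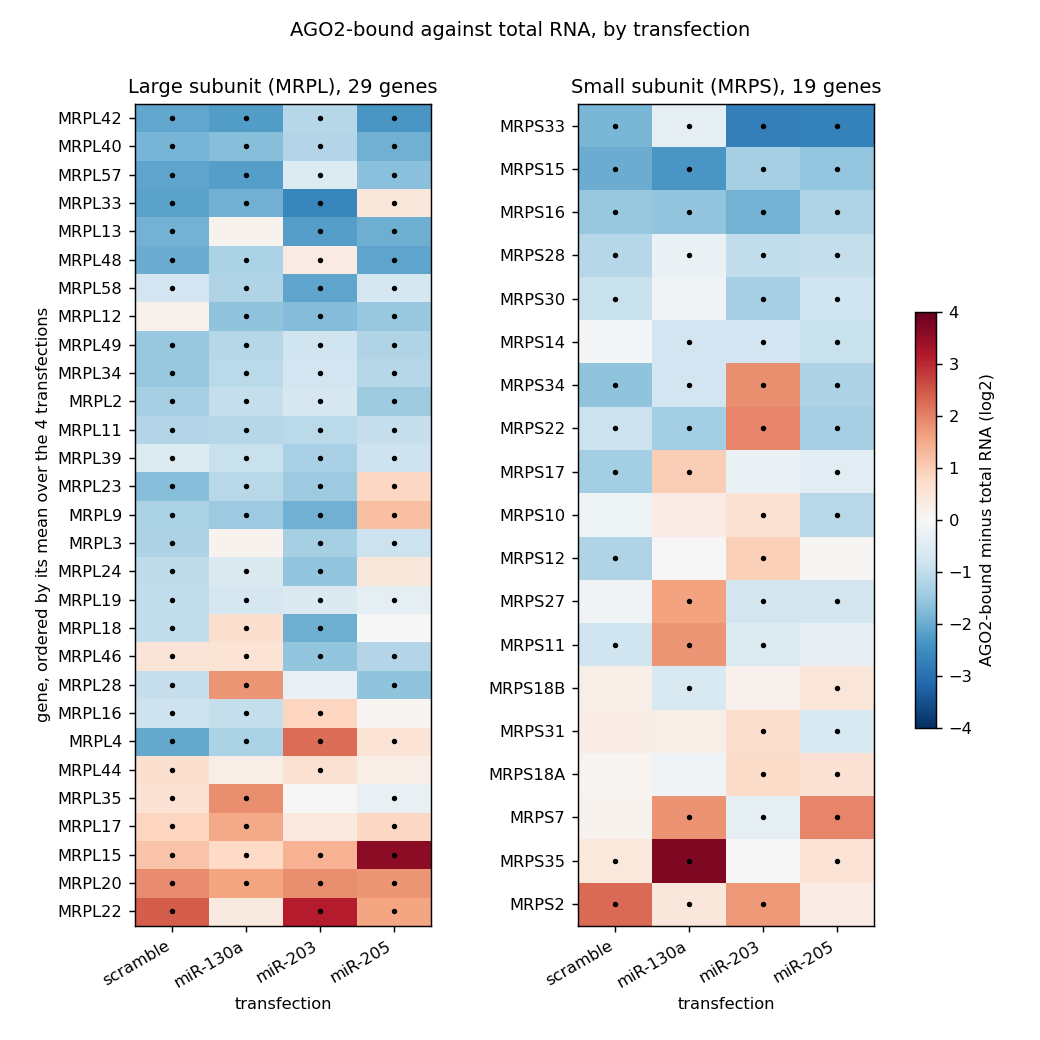
AGO2-bound minus total RNA (log2) for the 29 large subunit genes (left) and 19 small subunit genes (right) in 4 transfections, as differences of group means over 3 arrays each; red is higher in AGO2-bound RNA, blue is lower, and a black dot marks an adjusted p under 0.05 in limma. MRPL42, MRPL40, MRPS15 and MRPS16 are blue in every column, MRPL20 and MRPL15 are red in every column, and rows such as MRPL4, MRPS34 and MRPS22 change colour between columns.

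MRPL15 and MRPL20 were the members called higher in AGO2-bound RNA in all 4 transfections, 4.17% of 48 members where 17.1% of all genes showed this pattern. The count was 2 to 5 over the 31 alternatives, with 5 when the replicate number was a block. MRPL20 is the counterpart of a bacterial protein that joins the large subunit early in assembly. On AGO2-bound arrays MRPL20 read 12.11, 11.86 and 11.77 after scramble, 11.78, 11.48 and 11.45 after miR-130a, 11.73, 11.72 and 11.68 with miR-203 and 11.64, 11.73 and 11.71 with miR-205. In total RNA MRPL20 read 9.80 to 10.23 on all 12 arrays. Every AGO2-bound array was above every total RNA array, and the differences were 1.90, 1.57, 1.86 and 1.78 (each SE 0.12), nearly the same size under each plasmid. MRPL15 behaved alike after scramble, miR-130a and miR-203, at 1.14, 0.81 and 1.40, and stood 3.59 higher (SE 0.15, adjusted p = 5.2e-16) after miR-205. On its AGO2-bound arrays it read 9.92, 9.59 and 9.31 after scramble, 9.74, 9.27 and 9.05 after miR-130a, 10.04, 10.21 and 9.99 with miR-203 and 11.73, 11.83 and 11.45 with miR-205. The miR-205 arrays stood apart from the other 9. MRPL17 was higher after scramble, miR-130a and miR-205, by 0.86, 1.51 and 0.82, and MRPL22 after scramble, miR-203 and miR-205.

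At the other end, 14 members were lower in AGO2-bound RNA in all 4 transfections, 29.2% of members where 16.2% of all genes were. They were MRPL2, MRPL11, MRPL19, MRPL34, MRPL39, MRPL40, MRPL42, MRPL49, MRPL57 and MRPL58 of the large subunit and MRPS15, MRPS16, MRPS28 and MRPS33 of the small one. MRPL42, found only in mitochondrial ribosomes, read 5.87, 5.43 and 5.78 in AGO2-bound RNA after scramble and 7.64, 7.85 and 7.82 in total RNA. Its AGO2-bound values were 5.32 to 6.21 after miR-130a, 6.69 to 6.96 with miR-203 and 5.61 to 5.89 with miR-205, all below its 12 total RNA values of 7.64 to 8.26. The differences were -2.07, -2.25, -1.13 and -2.33 (each SE 0.17). MRPS15, a counterpart of a bacterial small subunit protein, was lower by 2.00, 2.33, 1.33 and 1.56 in the same order. MRPL57 was lower by 2.10 after scramble, 2.19 after miR-130a, 0.56 with miR-203 and 1.68 with miR-205. After miR-203 its AGO2-bound arrays read 9.46, 9.67 and 9.23 and its total RNA arrays 9.96, 10.04 and 10.03. With the mean of the probe sets of MRPL57, that last difference was -0.14 and no longer passed.

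MRPL58, a peptidyl-tRNA hydrolase of the large subunit that frees stalled mitochondrial ribosomes, was lower by 0.77, 1.19, 2.12 and 0.71. MRPL40 was lower by 1.84, 1.70, 1.19 and 1.93, and MRPS16 by 1.52, 1.58, 1.88 and 1.21. Of the 14, 4 lost 1 of their calls when an array was left out. MRPL2 after miR-203 was at -0.47 without AGO2-bound replicate 3. MRPS33 after miR-130a was at -0.24 without AGO2-bound replicate 3. MRPS28 after miR-130a was between -0.26 and -0.17 without AGO2-bound replicate 1 or total RNA replicate 2 or 3, and MRPL19 after miR-205 was between -0.42 and -0.28 without any of 5 arrays (AGO2-bound replicates 1 and 3 and the 3 of total RNA). MRPS28 also lost its call when only the 6 arrays of the transfection were fitted, and MRPL19 its call with no filter. The count of members lower in all 4 stayed between 13 and 14 over all 31 alternatives run.

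A larger number of members changed side. Of the 48, 20 were higher in AGO2-bound RNA in some transfections and lower in others, which is 41.7% where 20.5% of all genes tested did so. The count was 17 to 21 over the 31 alternatives. By subunit they were 10 of 29 large subunit genes (MRPL4, MRPL9, MRPL16, MRPL18, MRPL23, MRPL28, MRPL33, MRPL35, MRPL46 and MRPL48) and 10 of 19 small subunit genes (MRPS7, MRPS10, MRPS11, MRPS12, MRPS17, MRPS18B, MRPS22, MRPS27, MRPS31 and MRPS34). Ribosomal proteins of the cytosol, 20 of 55 or 36.4%, and subunits of the respiratory chain and ATP synthase, 26 of 65 or 40%, showed similar shares.

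MRPL4 had the widest swing. Its bacterial counterpart lines the tunnel through which the new chain leaves the ribosome. On the AGO2-bound arrays MRPL4 read 4.92, 4.55 and 4.90 after scramble, 5.45, 5.51 and 5.41 after miR-130a, 8.91, 9.53 and 8.37 with miR-203 and 6.93, 7.21 and 6.82 with miR-205. In total RNA it read 6.91, 6.78 and 6.78 after scramble, 6.71, 6.80 and 6.70 after miR-130a, 6.72, 6.74 and 6.68 with miR-203 and 6.44, 6.67 and 6.25 with miR-205. Its AGO2-bound arrays thus lay below total RNA after scramble and miR-130a and above it after miR-203 and miR-205, without overlap in any transfection. The AGO2-bound minus total RNA differences were -2.04, -1.28, 2.22 and 0.53 (each SE 0.19), with limma adjusted p-values of 6.4e-10, 1.4e-06, 1.4e-10 and 0.013.

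MRPS22 and MRPS34, small subunit proteins without a bacterial counterpart that are both linked to inherited mitochondrial disease, turned over after miR-203 alone among the 4 plasmids. MRPS22 read 6.26, 6.30 and 6.45 in AGO2-bound RNA after scramble, 9.07, 9.66 and 8.97 after miR-203, and 5.68 to 6.16 on the 6 arrays of miR-130a and miR-205. Its total RNA values were 6.91 to 7.50 on all 12 arrays. MRPS34 read 5.43, 5.11 and 5.26 in AGO2-bound RNA after scramble, 8.37, 8.60 and 7.94 after miR-203, and 4.51 to 5.85 on the 6 other AGO2-bound arrays of microRNAs. In total RNA MRPS34 read 6.57, 7.0 and 7.09 after scramble and 6.53, 6.51 and 6.29 after miR-203. The miR-203 arrays of both genes were above every total RNA array and every other AGO2-bound array. The probe set of MRPS22 is of a kind that can bind related transcripts, and RefSeq lists 1 pseudogene of it.

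MRPL33 and MRPL9, both with bacterial counterparts, turned over after miR-205 alone. MRPL33 read 6.63, 6.67 and 7.16 in AGO2-bound RNA after scramble and 8.79, 9.64 and 9.37 after miR-205, with 6.28 to 7.12 on the 6 arrays of the other two microRNAs. In total RNA MRPL33 read 8.75 to 9.16 on all 12 arrays, and the miR-205 AGO2-bound arrays overlapped these values on 1 array of 3. MRPL9 was lower in AGO2-bound RNA by 1.26, 1.45 and 1.92 after scramble, miR-130a and miR-203 and higher by 1.21 after miR-205 (each SE 0.13). Its second probe set gave -1.62, -1.75, -2.15 and 1.23, so 2 separate sets of probes carried the same turn.

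MRPL28 and MRPS11 turned over after miR-130a. MRPL28 read 4.54, 4.63 and 4.56 in AGO2-bound RNA after scramble and 6.50, 7.50 and 6.90 after miR-130a, with 3.61 to 5.18 on the 6 remaining AGO2-bound arrays. In total RNA it read 5.13 to 5.24 after miR-130a and 4.91 to 5.62 on the other arrays. MRPS11 read 6.57, 6.30 and 6.33 after scramble and 8.66, 9.29 and 8.61 after miR-130a in AGO2-bound RNA, against 6.99 to 7.22 in total RNA of miR-130a. In both genes all 3 AGO2-bound arrays of miR-130a were above all total RNA arrays. A second probe set of MRPS11, with a mean of 2.56 and so below the filter, gave -0.22 after miR-130a and did not turn.

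**Figure D2:**
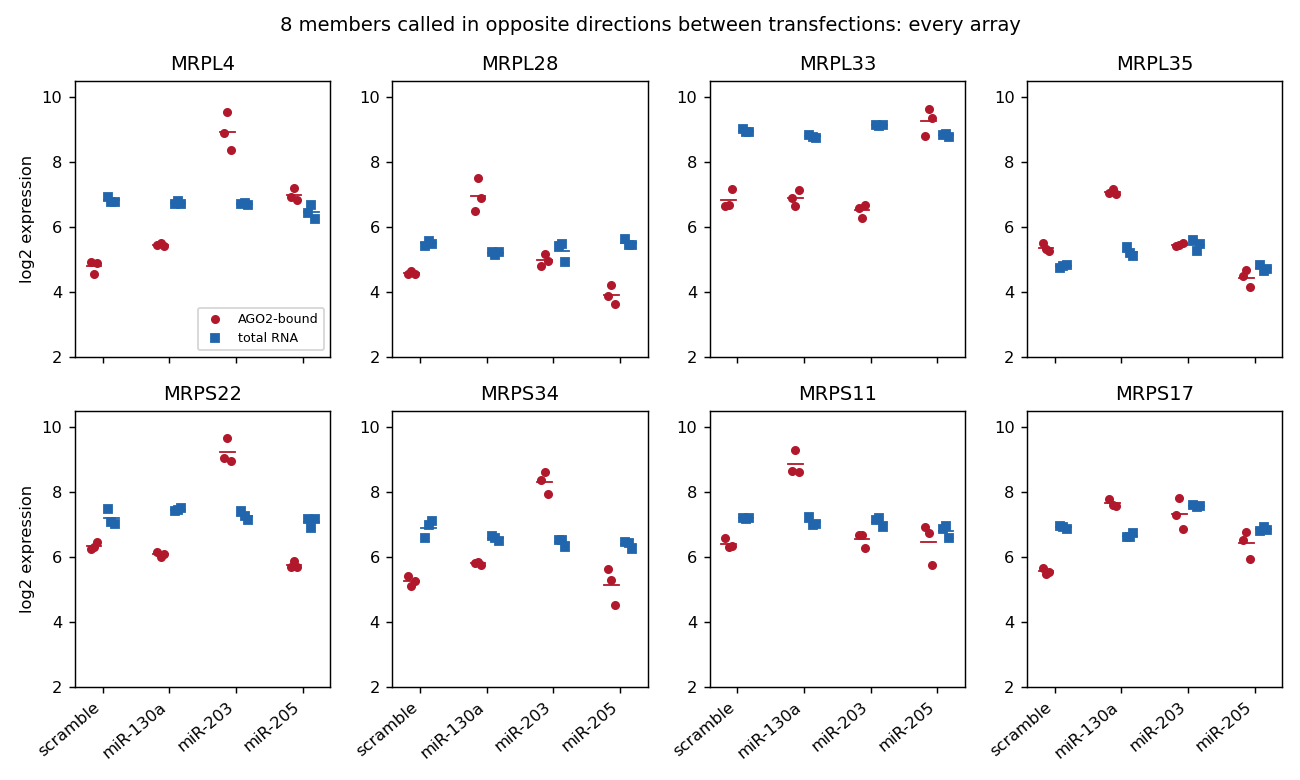
Deposited log2 values of 8 members on every array, by transfection (3 arrays per group); red circles are AGO2-bound RNA, blue squares total RNA, and short lines the group means. The genes are the 4 of each subunit with the largest range of AGO2-bound group means among those called in opposite directions. Red points cross the blue ones after 1 or more plasmids, as for MRPL4, MRPS22 and MRPS34 after miR-203. Blue points move less than red ones, by up to 0.92 between group means in MRPS17 and 0.71 in MRPL35.

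The spread over transfections was larger in the AGO2-bound arrays for most members. The range of the 4 group means had a median of 1.67 over the 48 members in AGO2-bound RNA and of 0.37 in total RNA. It was larger in AGO2-bound RNA for 45 of 48 members (93.8%, where 77.6% of all genes did so), the exceptions being MRPL11, MRPL44 and MRPS18A. In AGO2-bound RNA, 35 members (72.9%) spanned at least 1 log2 unit and 16 (33.3%) at least 2, against 47.8% and 13.2% of all genes. In total RNA 0 members spanned 1 unit, against 12.2% of all genes, and the largest range was 0.92, of MRPS17. Large and small subunit genes had similar median ranges in AGO2-bound RNA, 1.66 and 1.69. Cytosolic ribosomal protein genes had median ranges of 1.39 and 0.20, and respiratory chain genes of 1.34 and 0.29. The highest of the 4 AGO2-bound group means was that of miR-203 in 18 genes, of miR-130a in 15, of scramble in 8 and of miR-205 in 7. The same shares over all genes were not counted. These ranges and highest groups compare transfections across what appear to be separate normalization runs, and the part of the runs was not tested.

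**Figure D3:**
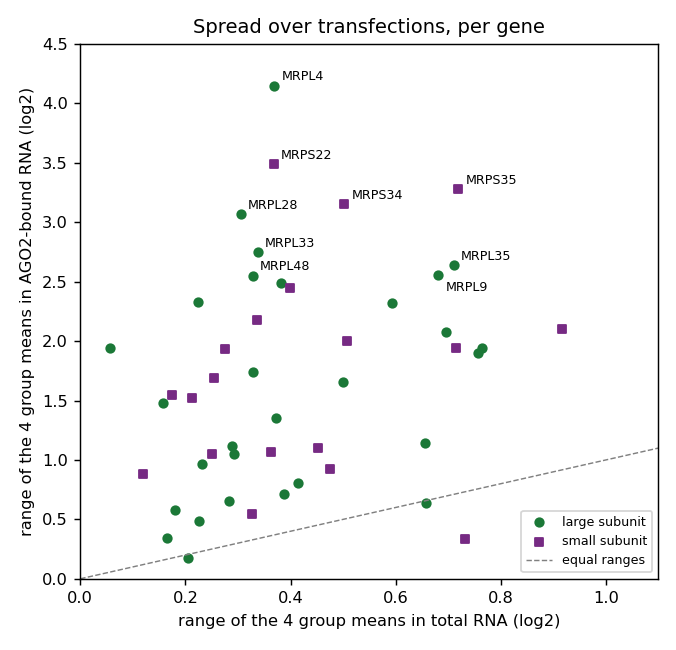
Range of the 4 group means (log2, each mean over 3 arrays) in total RNA on the horizontal axis and in AGO2-bound RNA on the vertical axis, for 29 large subunit genes (green circles) and 19 small subunit genes (purple squares); the dashed line marks equal ranges, and genes with an AGO2-bound range of at least 2.5 are named. In 45 of 48 genes the point lies above the line, and no total RNA range reaches 1.

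Across the 48 members, the AGO2-bound minus total RNA difference in one transfection went with that in another to a lesser degree than across all genes. Pearson's r was 0.59 between scramble and miR-130a, 0.53 between scramble and miR-203, 0.59 between scramble and miR-205, 0.28 between miR-130a and miR-203, 0.41 between miR-130a and miR-205 and 0.43 between miR-203 and miR-205. Over all 6782 genes the same values were 0.79, 0.68, 0.72, 0.63, 0.68 and 0.59. The points are genes and not replicates, and they share a probe set between transfections but no arrays.

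After miR-130a, more members were higher than lower in AGO2-bound RNA, and most of those higher belonged to the small subunit. Against scramble, 16 of 48 members were higher and 7 lower in AGO2-bound RNA, where 18.6% of all genes were higher and 19.9% lower. The 19 small subunit genes gave 10 higher and 3 lower with a median of 0.54, and the 29 large subunit genes 6 and 4 with a median of 0.12. All 8 mitochondria-specific small subunit genes lay between -0.25 and 2.58, and 5 of them were called higher and 0 lower. The median of all members was 0.26. It was 0.11 without AGO2-bound replicate 1 of miR-130a and 0.12 with the 3 dim members included. Same-numbered AGO2-bound arrays of miR-130a and scramble also count as paired. With the replicate number as a block 22 members were higher and 8 lower, where 48.9% of all genes were called in either direction.

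MRPS35, a mitochondria-specific small subunit protein, rose the most after miR-130a. In AGO2-bound RNA it read 9.13, 8.79 and 8.67 after scramble and 11.41, 11.74 and 11.18 after miR-130a, while total RNA read 8.55, 8.26 and 8.48 after scramble and 7.73, 7.66 and 7.76 after miR-130a. The arrays did not overlap in either kind of RNA, and the 2 kinds moved apart. The change was 2.58 (SE 0.18, limma adjusted p = 9.9e-08) in AGO2-bound RNA and -0.72 (SE 0.09, adjusted p = 0.00012) in total RNA. After miR-203 and miR-205 the AGO2-bound arrays of MRPS35 read 7.91 to 8.31 and 8.61 to 8.85, so no other plasmid came near the miR-130a values. RefSeq lists 3 pseudogenes of it.

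MRPS11, MRPL28, MRPS17 and MRPL13 followed, with rises of 2.45, 2.39, 2.10 and 2.05. MRPL13 read 5.65, 5.58 and 5.60 in AGO2-bound RNA after scramble, 7.51, 8.0 and 7.46 after miR-130a, and 5.23 to 5.49 on the 6 arrays of miR-203 and miR-205. Its total RNA stayed at 7.25 to 7.69 on all 12 arrays, so its AGO2-bound arrays reached the values of total RNA after miR-130a and stayed below them on the other 9 arrays. The largest falls were those of MRPL12 (-1.78), MRPL22 (-1.76) and MRPS2 (-1.66). MRPL22, whose bacterial counterpart also lines the exit tunnel, read 9.27, 9.36 and 8.89 after scramble and 7.72, 7.22 and 7.30 after miR-130a in AGO2-bound RNA. MRPS2 read 9.49, 9.62 and 8.78 after scramble and 7.95, 7.58 and 7.38 after miR-130a. Both genes lost most of the AGO2-bound excess they had after scramble, which was 2.42 and 2.26 over total RNA there and 0.35 and 0.45 after miR-130a.

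After miR-203, 15 members were higher and 9 lower in AGO2-bound RNA than after scramble, where 22.7% of all genes were higher and 28.8% lower. The large subunit gave 8 higher and 5 lower and the small subunit 7 and 4, with a median over all members of 0.11. Same-numbered AGO2-bound arrays of miR-203 and scramble deviated together and count as paired, and with the replicate number as a block 20 were higher and 14 lower. With that block 61.5% of all genes were called in either direction. The median was 0.20 without AGO2-bound replicate 3 of miR-203, 0.195 and 0.0675 without AGO2-bound replicates 1 and 3 of scramble, and 0.0169 with the 3 dim members included. MRPL4 rose by 4.15 (SE 0.23, limma adjusted p = 1.2e-08), MRPS34 by 3.04 (SE 0.24), MRPS22 by 2.9 (SE 0.17), MRPL48 by 2.19 (SE 0.15) and MRPS12 by 1.93 (SE 0.22). MRPS12 is a counterpart of the bacterial protein at the decoding centre. MRPL48, known only from mitochondria, read 4.54, 4.35 and 4.63 after scramble and 6.76, 6.88 and 6.45 after miR-203 on AGO2-bound arrays. Its total RNA read 6.33 to 6.40 after miR-203, so AGO2-bound RNA reached just above it. The 5 largest falls were MRPL12 (-1.94), MRPL46 (-1.33), MRPL18 (-1.17), MRPL58 (-1.14) and MRPS33 (-1.05).

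After miR-205, 12 members were higher and 14 lower in AGO2-bound RNA, against 20.4% and 23.7% of all genes. The rises lay mostly in large subunit genes with bacterial counterparts, 9 of 20 higher and 4 lower. Of the 9 mitochondria-specific large subunit genes and the 8 mitochondria-specific small subunit genes, 0 were called higher, and 4 and 3 were called lower. At an unadjusted p under 0.05, 12 members were higher and 16 lower, and the share of all genes at that looser threshold was not counted. The median over all members, -0.06, had no fixed sign: it was 0.07 without AGO2-bound replicate 3 of miR-205 and 0.03 without AGO2-bound replicate 1 of scramble.

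The 5 largest rises after miR-205 were MRPL33 by 2.45 (SE 0.22, limma adjusted p = 8.6e-07), MRPL9 by 2.26 (SE 0.16), MRPL4 by 2.20 (SE 0.23), MRPL15 by 2.06 (SE 0.19) and MRPL23 by 1.90 (SE 0.16). MRPL23, whose bacterial counterpart sits at the mouth of the exit tunnel, read 6.03, 5.87 and 5.86 in AGO2-bound RNA after scramble and 8.08, 7.91 and 7.47 after miR-205, with 6.16 to 6.40 on the 6 arrays of miR-130a and miR-203. In total RNA it read 7.46, 7.75 and 7.68 after scramble and 6.93, 7.10 and 6.94 after miR-205. The arrays of the 2 plasmids did not overlap in either kind of RNA. The 5 largest falls in AGO2-bound RNA were MRPL12 (-1.75), MRPS2 (-1.69), MRPL46 (-1.55), MRPL22 (-1.19) and MRPS31 (-1.07).

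MRPL12, MRPL58 and MRPS14 were lower in AGO2-bound RNA after each microRNA, in 3 comparisons that share the 3 scramble arrays. These are 6.25% of 48 members, where 6.96% of all genes showed this pattern. MRPL12 forms the stalk of the large subunit, where translation factors dock. It read 8.16, 8.21 and 7.54 in AGO2-bound RNA after scramble, 6.37, 6.18 and 6.01 after miR-130a, 6.15, 6.01 and 5.91 with miR-203 and 6.61, 6.36 and 5.70 with miR-205. In total RNA it read 7.51 to 8.0 on all 12 arrays, and it passed the test after no microRNA there. The scramble arrays were the only AGO2-bound ones at the level of total RNA. MRPS14 read 6.77, 6.92 and 6.82 after scramble and 5.84 to 6.35 on the 9 AGO2-bound arrays of microRNAs, with changes of -0.62, -0.75 and -0.88. A second, dimmer probe set of MRPS14 had an AGO2-bound group mean of 4.19 after scramble. Its means were 3.98 after miR-130a, 3.39 with miR-203 and 4.09 with miR-205, so it moved little after miR-130a and miR-205. That probe set was not tested alone. MRPL58 read 6.73, 6.64 and 6.56 after scramble and 5.46 to 6.43 on those 9 arrays, with changes of -0.57, -1.14 and -0.40. Its call after miR-205 (adjusted p = 0.042 in limma) was lost without AGO2-bound replicate 1 or 3 of miR-205 (-0.43 and -0.27), without any 1 of the 3 scramble arrays (-0.44 to -0.35), with no filter and with a trended and robust prior. MRPL4, MRPS12 and MRPS17 were higher after each microRNA, 6.25% of members where 1.65% of all genes were. MRPS17 changed by 2.10, 1.76 and 0.86, and MRPS12 by 0.94, 1.93 and 1.05. With the mean of its probe sets MRPS12 changed by 0.27, 0.80 and 0.28, and the first of these no longer passed. The call of MRPL4 after miR-130a, 0.67, was lost with no filter, without any 1 of the 3 AGO2-bound arrays of miR-130a (0.64 to 0.69) and without replicate 2 or 3 of scramble (0.55 and 0.72). Since the scramble arrays enter all 3 comparisons, a shift of those arrays and a shift of the microRNA arrays cannot be told apart.

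**Figure D4:**
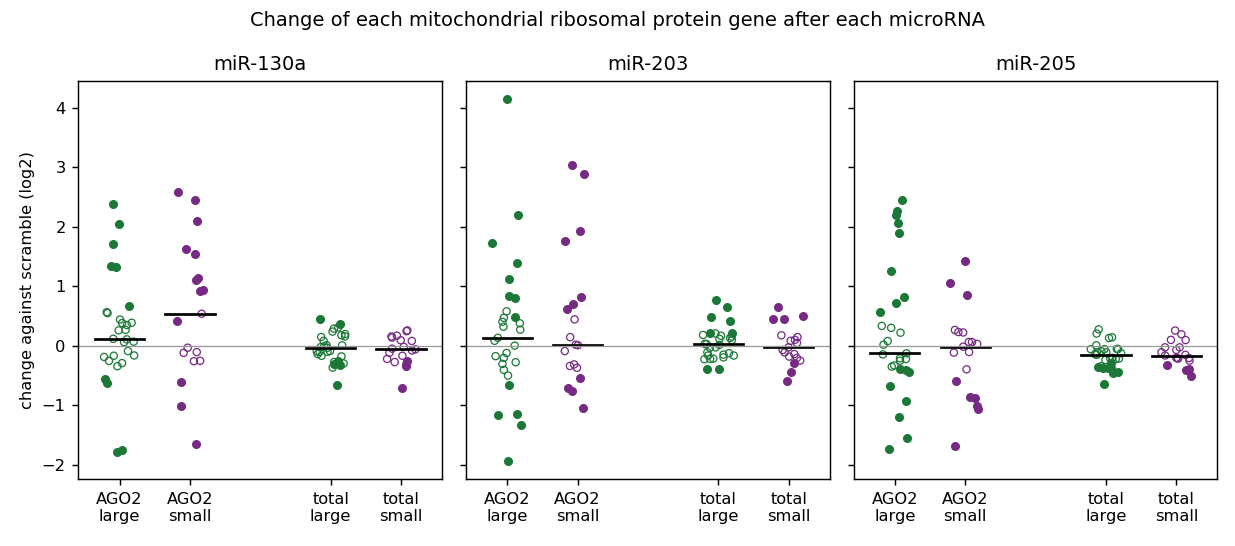
Change of each member against scramble (log2) for each microRNA (1 panel each), in AGO2-bound RNA and in total RNA, for 29 large (green) and 19 small (purple) subunit genes; filled points have an adjusted p under 0.05 in limma, open points do not, and black lines are medians. AGO2-bound changes span -1.94 to 4.15, whereas total RNA changes stay between -0.72 and 0.77.

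In total RNA the changes were small, and 0 members changed by 2-fold or more in any of the 3 comparisons. After miR-205, 0 of 48 members were higher and 12 lower (25%), where 10.1% of all genes were higher and 13.3% lower. At an unadjusted p under 0.05, 2 were higher and 18 lower. The share of all genes at that looser threshold was not counted, so the shares above cannot be set against these counts. The median change was -0.16, and it lay between -0.19 and -0.14 when each of the 6 arrays was left out. The count of calls depended on the fit: without total RNA replicate 3 of miR-205 it was 5, and with all 24 arrays in the fit it was 4, all lower. In the first of these fits 18.1% of all genes were called in either direction. In both fits the share of all genes called was above that of the members. The share of all genes called lower alone is not given for these fits. The 5 largest falls were MRPL23 by 0.64 (SE 0.09, limma adjusted p = 0.00028), MRPS34 by 0.50, MRPL11 by 0.45, MRPL58 by 0.45 and MRPS7 by 0.41. MRPL58 read 7.29, 7.48 and 7.47 after scramble and 6.97, 6.98 and 6.94 after miR-205. MRPS7 read 7.37, 7.54 and 7.37 after scramble and 6.96, 7.13 and 6.96 after miR-205, and neither gene's arrays overlapped. The calls of MRPS34 and MRPL11 were each lost when 1 of 3 arrays was left out. For MRPS34 these were total RNA replicate 3 of miR-205 (-0.43) and replicates 2 and 3 of scramble (-0.45 and -0.40). For MRPL11 they were total RNA replicates 1 and 3 of miR-205 (-0.37 and -0.45) and replicate 2 of scramble (-0.34).

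Of the 12 genes that were lower in total RNA after miR-205, 10 had a promoter entry in RefSeq, and 3 of these held the letters CCGGAAG in the 250 bases before their start, read on either strand. With 50 bases after the start included, MRPS16 of the 12 held them too, and 18 of 45 members (40%) and 21.5% of tested genes with an entry did. These shares are of the longer window, so the 3 of 10 cannot be set against them. The 3 with a match before the start are MRPS34 (chr16:1773135-1773384, minus strand), MRPL58 (chr17:75012420-75012669, plus strand) and MRPL40 (chr22:19432295-19432544, plus strand) in RefSeq on GRCh38.p14. The letters are the core that ETS-family factors are known to bind. The promoters are printed 5′ to 3′ in the direction of the gene, with each match in capitals, to show where the matches sit. In total RNA, MRPL40 was also called lower after miR-130a and miR-203, and MRPS34 after miR-203, in comparisons that share the scramble arrays. A link between the letters and the fall was not tested. A match is a description of the letters and not a binding site measured here.
MRPS34: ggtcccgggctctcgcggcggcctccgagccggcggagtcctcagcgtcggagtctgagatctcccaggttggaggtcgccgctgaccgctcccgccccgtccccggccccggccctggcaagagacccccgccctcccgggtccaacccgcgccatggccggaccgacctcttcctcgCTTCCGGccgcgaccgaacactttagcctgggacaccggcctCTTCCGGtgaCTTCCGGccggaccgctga
MRPL58: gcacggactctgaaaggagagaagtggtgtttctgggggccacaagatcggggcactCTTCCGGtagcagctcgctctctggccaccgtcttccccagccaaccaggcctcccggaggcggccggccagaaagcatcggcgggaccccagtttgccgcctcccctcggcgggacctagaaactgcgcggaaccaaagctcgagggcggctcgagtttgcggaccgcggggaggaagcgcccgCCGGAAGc
MRPL40: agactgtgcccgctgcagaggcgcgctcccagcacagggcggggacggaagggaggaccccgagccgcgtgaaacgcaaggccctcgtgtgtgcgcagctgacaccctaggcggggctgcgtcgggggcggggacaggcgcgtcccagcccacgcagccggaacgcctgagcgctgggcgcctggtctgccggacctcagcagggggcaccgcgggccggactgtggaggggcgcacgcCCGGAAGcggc
MRPS34 holds the match 3 times, MRPL58 in 2 places on opposite strands, and MRPL40 1 time close to the start.

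After miR-130a, 2 members were higher and 7 lower in total RNA, where 15.9% of all genes were higher and 13.3% lower. The median change was -0.06, and -0.11 after centring each array. MRPS35 fell by 0.72, MRPL11 by 0.66 (SE 0.13, limma adjusted p = 0.0023) and MRPS33 by 0.34, while MRPL35 rose by 0.45. MRPL11 read 6.26, 6.55 and 6.19 after scramble and 5.82, 5.53 and 5.68 after miR-130a, without overlap. The other calls were MRPL23, MRPL40, MRPL48 and MRPS17, at -0.33 to -0.25, and MRPL46 at 0.37. The count of 9 became 5 without total RNA replicate 1 of miR-130a, 4 with all 24 arrays in the fit, and 14 (4 higher and 10 lower) with a trended and robust prior for the spread. In these fits 22.1%, 17.7% and 30.9% of all genes were called in either direction. The members lower became 11 after centring each array and 4 without replicate 2 of miR-130a, and those higher became 5 without replicate 1 of scramble.

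After miR-203, 10 members were higher and 5 lower in total RNA, against 19.8% of all genes in each direction. The median was 0.02, and -0.02 without total RNA replicate 2 of miR-203. MRPL46 rose by 0.77 (SE 0.11), MRPS17 by 0.66 (SE 0.08, limma adjusted p = 3.8e-05), MRPL35 by 0.66, MRPS27 by 0.49 and MRPL9 by 0.48. MRPS17 read 6.95, 6.94 and 6.86 after scramble and 7.61, 7.55 and 7.56 after miR-203. MRPL46 read 5.91, 5.83 and 5.81 after scramble and 6.53, 6.74 and 6.57 after miR-203. Neither gene's arrays overlapped. In AGO2-bound RNA, MRPL46 went the other way, from 6.07, 6.57 and 6.47 to 5.08, 4.98 and 5.06. MRPS18A fell by 0.59 and MRPL40 by 0.39. With all 24 arrays in the fit, 7 were higher and 2 lower, without total RNA replicate 3 of scramble 7 and 3, and with the mean of a gene's probe sets 11 and 8. With all 24 arrays 28% of all genes were called in either direction.

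Transcripts that a microRNA draws into AGO2 and lowers in the cell would be higher in AGO2-bound and lower in total RNA, and the series was built to look for these. The reverse, lower in AGO2-bound and higher in total RNA, was not rarer over all genes after miR-130a (206 genes, 3.04%) and miR-203 (406 genes, 5.99%), and held 197 genes after miR-205. Its only member was MRPL46, after miR-203. After miR-130a those higher in AGO2-bound and lower in total RNA were MRPS17, MRPS33 and MRPS35 among 191 genes (2.82% of all tested). After miR-203 MRPS34 was the member among 380 genes (5.60%). After miR-205 they were MRPL4, MRPL15, MRPL18, MRPL23 and MRPS7 among 283 genes (4.17%). MRPS7, the counterpart of a bacterial small subunit protein that starts the assembly of its domain, read 7.60, 7.56 and 7.51 in AGO2-bound RNA after scramble and 8.98, 9.23 and 8.73 after miR-205. It was also higher in AGO2-bound RNA after miR-130a, at 9.20, 9.39 and 8.96, where total RNA did not pass the test. MRPS33 rose from 7.18, 7.29 and 7.39 to 8.60, 8.47 and 8.19 in AGO2-bound RNA after miR-130a and fell by 0.34 in total RNA.

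Several of the total RNA calls in that group were weak. That of MRPS17 after miR-130a, -0.26, was lost without total RNA replicate 1 or 2 of miR-130a (-0.23 and -0.24) or of scramble (-0.24 and -0.25). That of MRPS34 after miR-203, -0.44, was lost without total RNA replicate 3 of miR-203 (-0.37) or replicate 2 or 3 of scramble (-0.39 and -0.34). That of MRPL4 after miR-205, -0.37, was lost without total RNA replicate 1 or 3 of miR-205 (-0.36 and -0.27) or replicate 1 of scramble (-0.33). MRPL18, at -0.38, lost it without total RNA replicate 1 or 3 of miR-205 (-0.29 and -0.34) or replicate 1 or 3 of scramble (-0.34 and -0.40). Its AGO2-bound call, 0.56, was lost without AGO2-bound replicate 1 or 2 of miR-205 (0.46 and 0.53) or replicate 3 of scramble (0.47). MRPL15 lost its total RNA call only with all 24 arrays in the fit, which also ended those of MRPS17, MRPS34, MRPL4 and MRPL18. MRPS33, MRPS35, MRPL23 and MRPS7 kept both calls under every alternative run.

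The difference between the AGO2-bound change and the total RNA change was tested as 1 term over all 24 arrays. After miR-130a it was positive in 18 members and negative in 5, where 16.2% and 18.4% of all genes were. After miR-203 it was positive in 14 and negative in 11, against 22.1% and 27%. After miR-205 it was positive in 11 and negative in 11, against 21.1% and 21.7%, and without AGO2-bound replicate 3 of miR-205 in 17 and 10. These shares of all genes are of the fit with all arrays, so the 17 and 10 cannot be set against them. The largest values were 4.26 (SE 0.26) for MRPL4 and 3.48 (SE 0.29) for MRPS34 after miR-203, and 3.30 (SE 0.20) for MRPS35 after miR-130a.

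Genes that work with the mitochondrial ribosome were read the same way, against scramble in AGO2-bound RNA, where the shares of all genes were 18.6% higher and 19.9% lower after miR-130a, 22.7% and 28.8% with miR-203, and 20.4% and 23.7% with miR-205. Of its proteins under other symbols, 3 were tested: DAP3 (a GTP-binding protein of the small subunit), PTCD3 and GADD45GIP1. PTCD3, a small subunit protein, was higher in AGO2-bound RNA after miR-205 than after scramble by 2.18, and DAP3 was higher by 0.75 after miR-130a and lower by 1.11 after miR-203. Of 5 mitochondrial translation factors, 3, 1 and 2 were higher in AGO2-bound RNA after miR-130a, miR-203 and miR-205 and 0 lower after any. TUFM, the elongation factor that brings transfer RNAs, was among them each time, at 0.59, 1.40 and 1.19, in comparisons that share the scramble arrays. Of 16 genes of mitoribosome assembly and mitochondrial rRNA, 3, 4 and 6 were higher and 1, 3 and 1 lower, and TFB2M, a transcription factor of mitochondrial DNA, was higher by 2.04, 2.26 and 1.19. OXA1L, which inserts mitochondrial products into the inner membrane, was higher in AGO2-bound than in total RNA in all 4 transfections, by 3.42, 2.91, 2.48 and 2.79. Of all genes, 17.1% were higher in all 4. Most of its list did not go that way: in this contrast 4, 5, 3 and 3 of the 16 were higher and 8, 7, 10 and 6 lower. The shares of all genes were 33.3% to 36.6% higher and 36.1% to 38.3% lower. Of 14 mitochondrial aminoacyl-tRNA synthetases and related enzymes, 3, 5 and 3 were higher and 4, 3 and 3 lower.

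Ribosomal proteins of the cytosol were read beside the mitochondrial ones in AGO2-bound over total RNA. The cytosolic list had 55 tested genes with medians of -0.79, -0.81, -1.07 and -0.67 after scramble, miR-130a, miR-203 and miR-205, and 36, 35, 37 and 33 were lower. The respiratory chain and ATP synthase list had 65 with medians of -1.15, -0.89, -0.86 and -0.98, and 50, 45, 47 and 42 were lower. All 3 classes thus lay below the median of all genes in each transfection, the mitochondrial ribosomal proteins less far than the cytosolic ones after miR-130a (-0.47) and miR-203 (-0.62). In total RNA after miR-205 the median was 0.01 for both of these lists, where it was -0.16 for the mitochondrial ribosomal proteins, and 4 of 55 and 6 of 65 were lower. No test between the lists was made.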

How the data were processed

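R 2.9.0, with GCRMA and RMA in no stated order or role, stands in the submitters' processing notes. The deposited log2 values per probe set (22277 on 24 Affymetrix GeneChip arrays for human genes, per the labels) were used as the authors made them, with no step repeated. For arrays no depth applies, and 3 arrays per group limit the precision. Probe sets with 1 gene symbol (19064) gave 11963 genes, each by its brightest probe set; 1043 had several symbols and 2108 were unnamed here. Genes under the median probe set mean (2.85) were left out, which left 6782.

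Models were fitted with lmFit and eBayes of limma 3.58.1 (R 4.3.3), with Benjamini-Hochberg adjustment over 6782 genes. AGO2-bound against total RNA and the difference of changes used all 24 arrays, and each microRNA against scramble used the 12 arrays of 1 kind of RNA. On simulated data with 67, 67 and 66 genes changed 1.5-, 2- and 4-fold, 56.7%, 92.5% and 100% of them were recovered for AGO2-bound against total RNA after scramble, and 74.6%, 97% and 100% for total RNA after miR-205.

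The members and lists were chosen with earlier results of these data known. The text names the 5 members that rose and the 5 that fell most per comparison without overlap of groups, members called 1 way in all 4 transfections, those higher in AGO2-bound and lower in total RNA, and list genes with the smallest p. MRPL17, the second probe sets of MRPL9, MRPS11 and MRPS14, members called the same way after all 3 microRNAs and repeats of TUFM and TFB2M were chosen after their values were seen. By symbol, 26 members have at least 1 pseudogene in RefSeq, whose transcripts a probe set may also bind. Of 51 members, 45 matched a promoter in RefSeq. A search for seed matches in transcripts was not run.

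The labels number the replicates 1 to 3 in each group. In AGO2-bound RNA, same-numbered arrays deviated together: against scramble, correlations of deviations were 0.107 to 0.516 with miR-130a and 0.162 to 0.577 with miR-203. These arrays count as paired, which rests on the data and not on a stated design. For the other comparisons at least 1 pair was at or under 0.1. Alternatives changed the filter, the probe set, the scaling, the prior for the spread, the arrays in the fit, the replicate block and each array in turn.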

Additional observations from a re-analysis of the deposited data

Results flagged for a closer look

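For 30 results the AGO2-bound change after a microRNA differed from the total RNA change by the limma term for that difference, with an adjusted p under 0.05. These are the 5 largest in each direction per microRNA. No cause was tested, and the 3′ minus 5′ signal of ACTB differed between AGO2-bound groups as given above.

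After miR-130a the difference of changes (log2) was 3.30 for MRPS35, 2.69 for MRPL28, 2.57 for MRPS11, 2.36 for MRPS17 and 2.04 for MRPL13. It was -2.07 for MRPL22, -1.82 for MRPS2, -1.77 for MRPL12, -0.85 for MRPS18B and -0.71 for MRPS14. After miR-203 it was 4.26 for MRPL4, 3.48 for MRPS34, 2.81 for MRPS22, 2.32 for MRPL48 and 2.14 for MRPS12. It was -2.10 for MRPL46, -1.91 for MRPL12, -1.35 for MRPL58, -0.97 for MRPL18 and -0.91 for MRPS33. After miR-205 it was 2.59 for MRPL33, 2.57 for MRPL4, 2.54 for MRPL23, 2.47 for MRPL9 and 2.44 for MRPL15. It was -1.94 for MRPS2, -1.69 for MRPL12, -1.68 for MRPL46, -0.95 for MRPS10 and -0.91 for MRPS31.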

How the results depend on the processing

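Of 175 results for members named by the rule, 158 kept their call and direction under every alternative run, 17 lost the call under at least 1, and 0 reversed. The cause of the moves below was not tested, except that fewer arrays or other genes enter some fits. Centring each array on its median gave member medians for AGO2-bound against total RNA of -1.08 (scramble), -0.56 (miR-130a), -0.72 (miR-203) and -0.90 (miR-205), and -0.11 for total RNA after miR-130a. With no filter, the miR-130a medians were -0.28 for AGO2-bound against total RNA, 0.12 for AGO2-bound RNA and 0.23 for the difference of changes. In total RNA, a trended and robust prior gave 14 called members after miR-130a, and all 24 arrays in the fit gave 4 after miR-130a, 9 after miR-203, and 4 with miR-205. Leaving out each array in turn, the medians ranged from -0.54 to -0.36 (AGO2-bound against total RNA, miR-130a), -0.69 to -0.46 (the same, miR-203), 0.11 to 0.33 (AGO2-bound RNA, miR-130a), 0.22 to 0.43 (difference of changes, miR-130a) and -0.0151 to 0.039 (total RNA, miR-203), and the called members in total RNA from 5 to 12 after miR-130a and from 5 to 12 after miR-205.

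With the replicate number as a block, called members in AGO2-bound RNA were 30 after miR-130a, 34 with miR-203, and 29 with miR-205, against 23, 24 and 26 without it. The share of all genes called with the block was 48.9%, 61.5% and 53.2% in the same order. Members higher in AGO2-bound RNA in all 4 transfections became 5 instead of 2. In AGO2-bound RNA of miR-203 against scramble, the members lower became 14 instead of 9. The block ended 0 calls of members named by the rule and moved no other count of members, in total or by direction, by over 1.5 times. Values near the floor, where about 40% of probe sets lie, are compressed, so changes of dim members are understated. The 3 arrays per group also limit small changes: 32.8% of simulated 1.5-fold changes came back for the AGO2-bound arrays of miR-205, and 20.9% (62.7% of 2-fold changes) for the difference between its AGO2-bound and total RNA changes.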

Other observations

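Motif letters known from promoters of mitochondrial genes were counted in the first-listed RefSeq promoter of each gene. In windows from 250 bases before to 50 after the start, CCGGAAG on either strand occurred in 18 of 45 member promoters (40%), against 21.5% of 5717 promoters of tested genes and 10.7% of all 27305. AAGATGGC, the core bound by YY1, occurred in 12 of 45 (26.7%), against 6.77% and 3.03%. The palindromic core bound by NRF1 occurred in 1 (2.22%), against 2.55% and 1.36%. CCGGAAG and AAGATGGC can overlap in the letters AAG. The shares are descriptions with no test.

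Among small subunit promoters with an entry, 9 held CCGGAAG and 7 held AAGATGGC, and among large subunit ones 9 and 5. The promoters of MRPL20, MRPL52, MRPS10, MRPS12 and MRPS18A held both.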
